A study of Homo sapiens with 36 samples.

Results

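Cyclin B, CDK1 and the kinases and phosphatases that set the time of mitotic entry were followed as 9 genes of the 29872 in the normalised count table, chosen by name: CCNB1, CCNB2, CCNB3, CDK1, WEE1, PKMYT1, CDC25B, CDC25C and PLK1. Each was found by matching its Ensembl identifier to its symbol in GENCODE v44, and all 9 were measured in every library. Their choice was made with the changes against vehicle in view, and CCNB3 was kept because it moved unlike CCNB1 and CCNB2, so levels against vehicle are given below as a description, and the counts of members past a threshold are no test of them. RNA was sequenced from LNCaP cells, an established human prostate cancer line, which received vehicle, AU2-94 (1 or 2 µM), atirmociclib (1 or 2 µM) or ribociclib (2 µM). The compounds inhibit the kinases that drive cells from G1 into S phase, AU2-94 and atirmociclib with a preference for CDK4 and ribociclib at CDK4 and CDK6. Cells of each of these 6 conditions were harvested after 24 h or 72 h, 3 biological replicates a time, which gives 12 groups and 36 libraries, and the labels give the vehicle wells a concentration of 2 µM as well. Wells kept to 72 h were seeded at a lower density, so time and density cannot be told apart, and all groups come from this 1 line. Labels number the replicates as batches without saying more of their origin, so p-values measure the spread between these libraries.

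Entry into mitosis is triggered when cyclin B, bound to CDK1, turns on the kinase that condenses chromosomes, dissolves the nuclear envelope and builds the spindle. Until then WEE1 in the nucleus and PKMYT1 at cytoplasmic membranes hold CDK1 off by adding inhibitory phosphates, and the CDC25 phosphatases take these off. PLK1 tips the balance by activating CDC25C and marking WEE1 for destruction, and most of these genes are transcribed late in the cell cycle and repressed in cells that are out of cycle or held in G1.

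Repression of late cell cycle genes is known to act through the CHR element close to the transcription start, and their activation needs CCAAT boxes upstream of it, so the promoters are shown. The 150 bases before the start site were taken from RefSeq (GRCh38.p14) for the 7 members with an entry, and WEE1 and PKMYT1 had none. The sequences run 5′ to 3′ on each gene's own strand, and capitals mark CHR (TTTGAA), its variants TTCGAA and TTTAAA, and CCAAT on either strand, where a reverse match reads ATTGG.
CCNB1: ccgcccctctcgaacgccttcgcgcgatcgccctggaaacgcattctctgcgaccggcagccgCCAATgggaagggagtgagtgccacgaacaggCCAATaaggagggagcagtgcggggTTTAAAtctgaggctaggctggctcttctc
CCNB2: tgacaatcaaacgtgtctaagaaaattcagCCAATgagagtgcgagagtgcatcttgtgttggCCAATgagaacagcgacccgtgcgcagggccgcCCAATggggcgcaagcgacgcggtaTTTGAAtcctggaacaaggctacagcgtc
CDK1: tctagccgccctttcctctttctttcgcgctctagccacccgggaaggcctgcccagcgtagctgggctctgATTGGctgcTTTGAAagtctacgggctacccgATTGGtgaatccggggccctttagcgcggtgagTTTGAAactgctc
CDC25B: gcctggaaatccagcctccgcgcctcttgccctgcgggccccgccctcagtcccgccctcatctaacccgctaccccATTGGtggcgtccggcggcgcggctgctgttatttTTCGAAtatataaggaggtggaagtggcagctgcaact
CDC25C: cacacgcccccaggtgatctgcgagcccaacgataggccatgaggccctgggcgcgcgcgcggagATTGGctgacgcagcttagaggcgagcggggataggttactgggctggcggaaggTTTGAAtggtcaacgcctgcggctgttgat
PLK1: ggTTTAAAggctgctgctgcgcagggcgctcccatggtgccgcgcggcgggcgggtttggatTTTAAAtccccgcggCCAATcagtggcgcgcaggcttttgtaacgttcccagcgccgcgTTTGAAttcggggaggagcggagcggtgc
CCNB3: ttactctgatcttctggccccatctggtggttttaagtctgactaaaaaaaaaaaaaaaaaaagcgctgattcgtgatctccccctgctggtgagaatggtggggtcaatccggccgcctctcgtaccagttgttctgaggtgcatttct
In the same order these stretches are chr5:69167000-69167149, chr15:59104996-59105145, chr10:60778328-60778477, chr20:3796160-3796309, chr5:138331805-138331954 on the minus strand, chr16:23678739-23678888 and chrX:50204615-50204764, the others being on the plus strand.

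A CHR of the TTTGAA form lay at −29 from the start in CCNB2 and PLK1, at −30 in CDC25C and at −69 and −13 in CDK1. CCNB1 had TTTAAA at −30, and CDC25B had TTCGAA at −38, while PLK1 also held TTTAAA at −148 and −88. CCAAT boxes were present in CCNB1 (−87 and −55), CCNB2 (−120, −87 and −54 within the printed stretch), PLK1 (−73) and, on the reverse strand, in CDK1 (−78 and −46), CDC25B (−73) and CDC25C (−85). Upstream of its printed stretch, within the 250 bases searched, CCNB2 also held TTTAAA at −193 and CCAAT at −244. Neighbouring boxes in the printed stretches were 32 bases apart in CCNB1 and CDK1 and 33 in CCNB2. CCNB3 held none of these letters in its window. Whether these letters bear on the levels of the members was not tested. Over the 34943 windows of 250 bases in the same table, 13.35% held TTTGAA, 12.377% a variant, 32.035% CCAAT, and 4.705% both TTTGAA and CCAAT, each searched on both strands and with no match overlapping another in the members. A match is only the presence of these letters.

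Counts had been normalised by the authors and are called normalised counts below. Their total per library was between 20675156 and 22692555, and replicates of a group had a correlation of log2 values of 0.986 to 0.989 over genes. Prostate markers were high in every library (KLK3 19802 to 55194, KLK2 2239 to 6652), as the LNCaP label says. Of the other cell types' markers, PTPRC, COL1A2, PECAM1 and CD3E never passed 7.09 and were at 0 in 25, 34, 27 and 34 of the 36 libraries, while COL1A1, VWF and CD68 were present at 194 to 644, 184 to 713 and 34.9 to 144. The summed level of that list was 757 to 929.5 in vehicle and 571 to 888 in treated libraries at 24 h, and 743 to 937 against 861 to 1474 at 72 h. Summed prostate markers were 76188 to 80566 in vehicle and 106295 to 115776 in treated libraries at 24 h, and 75221 to 76740 against 116535 to 144918 at 72 h, and the part of either list in the results was not tested.

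Mitotic entry genes were lower than vehicle at 24 h in every treatment, with 8 of the 9 members lower in all 5. Each comparison is a log2 difference of log2(normalised count + 1) from a limma fit of the 6 groups of a time point, and p-values are adjusted by Benjamini-Hochberg over all genes tested. The members were picked with these contrasts known, so the counts that follow, and the shares of all genes past the same thresholds in parentheses, only describe the chosen genes and nothing is read from them. At 24 h the difference reached −1 with an adjusted p of 0.05 or less in 7 members for AU2-94 1 µM (2.4% of all genes tested), in 9 for AU2-94 2 µM (2.94%), in 8 for atirmociclib 1 µM (4.22%, with CCNB3 past both thresholds upward, 1.5%), in 9 for atirmociclib 2 µM (4.82%) and in 8 for ribociclib 2 µM (3.66%). At 72 h no member did so with AU2-94 1 µM (0.869%), AU2-94 2 µM (0.838%) or ribociclib (1.54%), while CDK1, WEE1, PKMYT1 and PLK1 did with atirmociclib 1 µM (2.67%) and atirmociclib 2 µM (3.67%). In bulk RNA, fewer cells in the late cell cycle and less transcript per cell cannot be told apart.

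The described counts turned on 1 library for some of the members. With AU2-94 2 µM at 24 h WEE1 went to −0.92 without replicate 2 of either group, and CCNB3 was no longer counted without AU2-94 replicate 2 or 3 or vehicle replicate 2 or 3. With atirmociclib at 24 h CCNB3 left the count without replicate 1 or 3 of the treatment or any of the vehicle replicates at 1 µM, and without replicate 1 or 2 of the treatment or replicate 2 or 3 of vehicle at 2 µM. At 72 h CDK1 with atirmociclib 1 µM went to −0.96 without its replicate 3 and −0.99 without vehicle replicate 2, which also took PKMYT1 to −0.99. With atirmociclib 2 µM, leaving out its replicate 2 took WEE1 to −0.98 and CDC25B to −1.01. PKMYT1 with AU2-94 1 µM went to −1.04 without vehicle replicate 1 and to −1.01 without AU2-94 replicate 1 or 3, and CCNB3 with ribociclib at 72 h went to 2.32 without ribociclib replicate 3.

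At 24 h every treated library was below every vehicle library in 8 members for AU2-94 1 µM (20.9% of all genes), 9 for AU2-94 2 µM (21%), 8 for atirmociclib 1 µM (21.8%), 9 for atirmociclib 2 µM (22.2%) and 8 for ribociclib (22.5%). At 72 h the treated libraries were wholly below vehicle in 7 members for each dose of AU2-94 (23.8% of genes at 1 µM, 22.5% at 2 µM), in 8 for atirmociclib (25.2% at 1 µM, 24.5% at 2 µM) and in 8 for ribociclib (21.3%). CDC25C with AU2-94 and CCNB3 were the members that overlapped vehicle at 72 h.

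**Figure D1:**
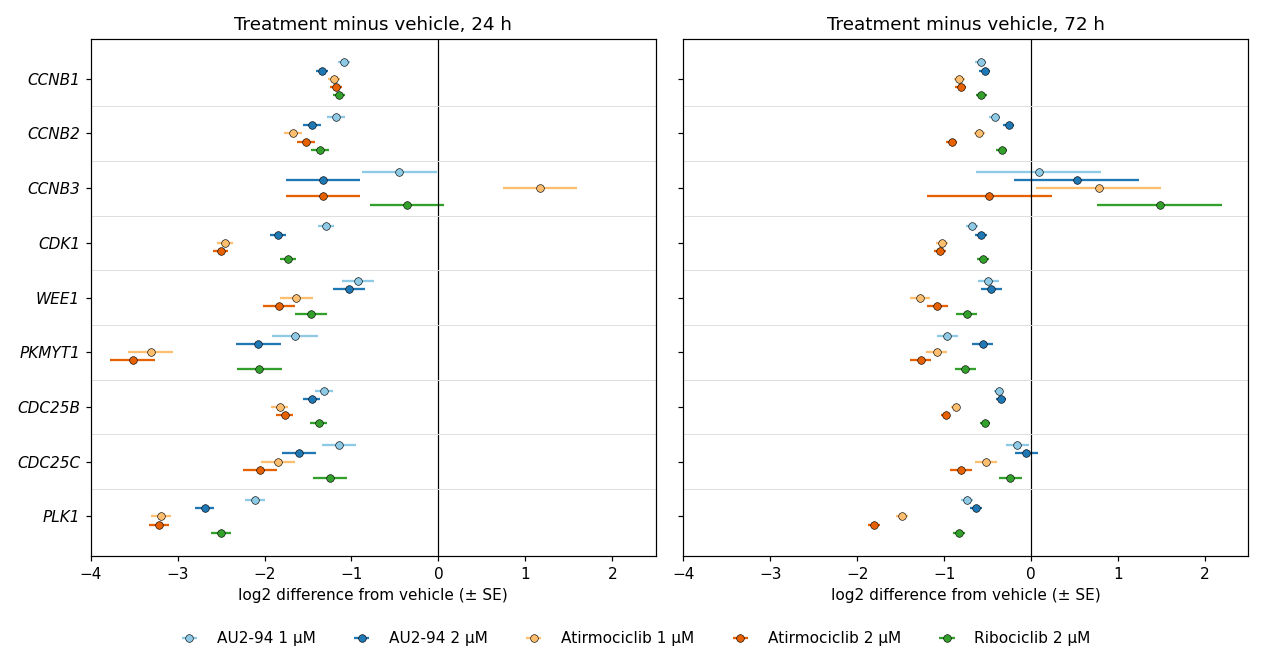
Log2 difference from time-matched vehicle, on log2(normalised count + 1), for the 9 members in each treatment at 24 h and 72 h, with bars of 1 SE (3 libraries a group). The 8 members other than CCNB3 lie left of 0 in all treatments at 24 h, PKMYT1 and PLK1 farthest, whereas CCNB3 lies right of 0 with atirmociclib 1 µM.

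CCNB1 (ENSG00000134057, chr5:69167135-69178245, plus strand, 9 merged exons), the main B-type cyclin of mitotic entry, lay in a narrow band below vehicle in every treatment at 24 h. Its normalised counts in vehicle replicates 1, 2 and 3 at 24 h were 2591, 2619.7 and 2657. AU2-94 gave 1322, 1224 and 1163 at 1 µM and 966, 1128 and 1025 at 2 µM, atirmociclib 1131, 1204 and 1085 at 1 µM and 1133, 1219 and 1135 at 2 µM, and ribociclib 1145, 1128 and 1295. Every treated library was below every vehicle library, and group means were 39.6% to 47.1% of vehicle, a log2 difference of −1.34 to −1.09 (SE 0.07). At 72 h vehicle held 2752, 2981 and 2750.4. With AU2-94 the values were 1872, 1844 and 1954 at 1 µM and 2103, 1932 and 1823 at 2 µM, with atirmociclib 1535, 1710.3 and 1531 at 1 µM and 1570.3, 1729 and 1537 at 2 µM, and with ribociclib 1876, 1934 and 1880.5. Means were then 56.3% to 69.1% of vehicle (−0.83 to −0.54, SE 0.06), still without overlap. Atirmociclib held the lowest values of the 72 h treatments.

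CCNB2 (ENSG00000157456, chr15:59105126-59125045, plus strand, 7 merged exons), the second mitotic B-type cyclin, had its lowest mean with atirmociclib at both times. Vehicle libraries 1, 2 and 3 had 1152, 1187 and 1084 normalised counts at 24 h. With AU2-94 it was at 465, 528 and 519 at 1 µM and 377, 420.0 and 449.9 at 2 µM, with atirmociclib 409, 363 and 304 at 1 µM and 410.4, 367 and 412 at 2 µM, and with ribociclib 446, 411 and 477. All treated libraries were below vehicle, at 31.4% to 44.2% of it (−1.68 to −1.18, SE 0.10). In vehicle at 72 h the values were 1195, 1281 and 1143. The AU2-94 libraries then had 906, 876 and 917 at 1 µM and 1012, 967 and 1045 at 2 µM, those of atirmociclib 776, 787 and 829 at 1 µM and 605, 682 and 630.3 at 2 µM, and those of ribociclib 974, 964 and 923. Means were 53.0% to 83.6% of vehicle (−0.92 to −0.26, SE 0.06), atirmociclib 2 µM lowest and AU2-94 2 µM nearest to vehicle, with no overlap.

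CDK1 (ENSG00000170312, chr10:60778331-60794852, plus strand, 9 merged exons), the catalytic partner of cyclin B, was lowest with atirmociclib at both times. At 24 h the 3 vehicle libraries were at 3187, 3091 and 2738 normalised counts. Libraries with AU2-94 had 1346, 1103 and 1228 at 1 µM and 742, 802 and 969 at 2 µM, those with atirmociclib 546, 553 and 539 at 1 µM and 564, 511 and 507 at 2 µM, and those with ribociclib 891, 879 and 938. Treated means were 17.5% to 40.8% of vehicle (−2.51 to −1.29, SE 0.09). Vehicle was at 3092, 3237 and 2922 at 72 h. Among treated libraries AU2-94 had 1978, 1755 and 2049 at 1 µM and 2173, 2001 and 2027 at 2 µM, atirmociclib 1572, 1586 and 1401 at 1 µM and 1522, 1500.1 and 1458 at 2 µM, and ribociclib 2164, 2219.9 and 1927. Means were 48.4% to 68.2% of vehicle (−1.04 to −0.55, SE 0.07), and no treated library reached the lowest vehicle library.

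PKMYT1 (ENSG00000127564, chr16:2968024-2980479, minus strand, 15 merged exons), the membrane-bound kinase that holds CDK1 off, was the member farthest below vehicle with atirmociclib at 24 h. Its normalised counts in vehicle replicates 1, 2 and 3 at 24 h were 528, 595 and 549. AU2-94 gave 166, 189.9 and 176 at 1 µM and 97.3, 155 and 151 at 2 µM, atirmociclib 69.3, 67.1 and 36.2 at 1 µM and 35.1, 59.8 and 51.9 at 2 µM, and ribociclib 148, 169 and 93.7. These were 8.78% to 31.8% of the vehicle mean (−3.52 to −1.65, SE 0.26), with all atirmociclib libraries below those of the other agents. At 72 h vehicle held 447, 562 and 483. With AU2-94 the values were 269, 225 and 268 at 1 µM and 336, 324 and 348 at 2 µM, with atirmociclib 236, 222 and 241 at 1 µM and 205, 220.5 and 188 at 2 µM, and with ribociclib 257, 350.3 and 278. Means were 41.2% to 67.6% of vehicle (−1.27 to −0.56, SE 0.12), all libraries below vehicle. PKMYT1 shares 1228 exon bases (24.7%) with PAQR4 and 357 (7.18%) with KREMEN2 on the opposite strand, and whether counting used strand is not given in the sources used here, so reads in the shared bases cannot be assigned. PAQR4 was itself lower in all 5 treatments (log2 difference −1.98 to −0.86 at 24 h, SE 0.13, and −1.17 to −0.67 at 72 h, SE 0.07). KREMEN2 passed in no treatment at 24 h (log2 difference −0.27 to 0.07, SE 0.24), and at 72 h its differences were positive (0.31 to 0.72, SE 0.22) and passed in limma with AU2-94 1 µM (adjusted p = 0.0154), AU2-94 2 µM (adjusted p = 0.0439) and atirmociclib 1 µM (adjusted p = 0.0395). The part of either gene in the PKMYT1 values was not tested.

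WEE1 (ENSG00000166483, chr11:9573670-9593457, plus strand, 12 merged exons), which phosphorylates CDK1 in the nucleus, had its lowest means with atirmociclib at both times. Vehicle libraries 1, 2 and 3 had 1414, 1727 and 1335 normalised counts at 24 h. With AU2-94 it was at 696, 831 and 825 at 1 µM and 829, 623 and 741 at 2 µM, with atirmociclib 490.3, 507 and 438 at 1 µM and 547, 464 and 281 at 2 µM, and with ribociclib 502, 464 and 660.1. Treated means were 28.9% to 52.6% of vehicle (−1.84 to −0.92, SE 0.19), without overlap. In vehicle at 72 h the values were 1543, 1602 and 1715. The AU2-94 libraries then had 1315, 1211 and 954 at 1 µM and 1283, 1152 and 1106 at 2 µM, those of atirmociclib 671, 683 and 647 at 1 µM and 753, 669.6 and 891 at 2 µM, and those of ribociclib 1130.4, 876 and 915. Means were 41.2% to 72.9% of vehicle (−1.28 to −0.46, SE 0.12), and treated libraries stayed below vehicle.

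CDC25B (ENSG00000101224, chr20:3786772-3806121, plus strand, 18 merged exons), the phosphatase that starts CDK1 activation at the centrosome, was lower in every treated library. At 24 h the 3 vehicle libraries were at 1787, 1657 and 1412 normalised counts. Libraries with AU2-94 had 638, 642 and 658 at 1 µM and 604, 592 and 561 at 2 µM, those with atirmociclib 425, 474 and 463 at 1 µM and 518, 440.5 and 459 at 2 µM, and those with ribociclib 637, 532 and 702. Means were 28.1% to 39.9% of vehicle (−1.83 to −1.32, SE 0.10). Vehicle was at 1703, 1749 and 1745 at 72 h. Among treated libraries AU2-94 had 1282, 1355 and 1369.7 at 1 µM and 1369.8, 1361 and 1347 at 2 µM, atirmociclib 1008, 922 and 914 at 1 µM and 865, 913 and 849.9 at 2 µM, and ribociclib 1189, 1232 and 1171. Means were 50.6% to 78.5% of vehicle (−0.98 to −0.35, SE 0.05), the AU2-94 and ribociclib groups above those of atirmociclib.

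CDC25C (ENSG00000158402, chr5:138285269-138338355, minus strand, 17 merged exons), the phosphatase that PLK1 activates, came nearest to vehicle again at 72 h. Its normalised counts in vehicle replicates 1, 2 and 3 at 24 h were 339, 340.4 and 281. AU2-94 gave 133, 157 and 141 at 1 µM and 105, 78.01 and 138 at 2 µM, atirmociclib 100.2, 80.03 and 84.4 at 1 µM and 89.7, 86.5 and 56.4 at 2 µM, and ribociclib 125, 131 and 145. Means were 24.2% to 44.9% of vehicle (−2.06 to −1.15, SE 0.20). At 72 h vehicle held 328, 305 and 353. With AU2-94 the values were 316, 268 and 299.6 at 1 µM and 375, 285 and 293 at 2 µM, with atirmociclib 220.4, 246 and 219.9 at 1 µM and 158, 226 and 183 at 2 µM, and with ribociclib 285, 288 and 262. Means were 57.6% to 96.7% of vehicle (−0.81 to −0.06, SE 0.13), and both doses of AU2-94 overlapped it. Without replicate 2 of AU2-94 2 µM its 72 h difference from vehicle was 0.02 on the log2 scale in place of −0.06. CDC25C shares 293 exon bases (8.80%) with FAM53C on the other strand, a gene that passed in no treatment at 24 h and was higher by 0.17 to 0.39 (log2) at 72 h. FAM53C had a mean of 2425 normalised counts over all libraries. As the strand setting is not given, reads in the shared bases cannot be assigned, and the part of FAM53C in the CDC25C values was not tested.

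PLK1 (ENSG00000166851, chr16:23677656-23690367, plus strand, 9 merged exons), the polo-like kinase that promotes mitotic entry, was the member farthest below vehicle with AU2-94 and ribociclib at 24 h. Vehicle libraries 1, 2 and 3 had 2624, 2624 and 2524 normalised counts at 24 h. With AU2-94 it was at 567, 567 and 665 at 1 µM and 362, 450.3 and 396 at 2 µM, with atirmociclib 307, 259.9 and 284 at 1 µM and 266, 332 and 244 at 2 µM, and with ribociclib 506, 440.1 and 427. These were 10.8% to 23.1% of the vehicle mean, log2 differences of −3.21 to −2.11 (SE 0.11). In vehicle at 72 h the values were 2857, 2683 and 2898. The AU2-94 libraries then had 1757, 1647 and 1652 at 1 µM and 1936, 1712 and 1783 at 2 µM, those of atirmociclib 1062, 1013 and 943 at 1 µM and 869, 738 and 799.6 at 2 µM, and those of ribociclib 1518, 1563 and 1671. The range was 28.5% to 64.4% of vehicle (−1.81 to −0.64, SE 0.07), with atirmociclib below AU2-94 and ribociclib in every library.

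CCNB3 (ENSG00000147082, chrX:50202713-50351914, plus strand, 15 merged exons), a B-type cyclin best known from meiosis, did not follow the others. At 24 h the 3 vehicle libraries were at 48.05, 67.5 and 58.4 normalised counts. Libraries with AU2-94 had 19.1, 73.5 and 51.6 at 1 µM and 23.8, 21.3 and 21.9 at 2 µM, those with atirmociclib 163, 85.3 and 160.0 at 1 µM and 19.6, 19.2 and 29.3 at 2 µM, and those with ribociclib 23.1, 52.8 and 72.4. Atirmociclib 1 µM was above vehicle and AU2-94 and atirmociclib at 2 µM below it, and means ran from 38.5% to 235% of vehicle (SE 0.43 on the log2 scale). Vehicle was at 19.9, 24.5 and 24.6 at 72 h. Among treated libraries AU2-94 had 20.97, 27.04 and 25.4 at 1 µM and 18.3, 22.2 and 89.02 at 2 µM, atirmociclib 59.3, 19.98 and 53.04 at 1 µM and 9.39, 7.82 and 53.5 at 2 µM, and ribociclib 151, 92.00 and 19.9. Single libraries stood far from their replicates, and means were 103% to 382% of vehicle (−0.48 to 1.48 in log2, SE 0.72), the mean and the log2 difference of atirmociclib 2 µM having opposite signs. Within a group the variance was up to 49.4 times the mean, and the direction hung on 1 library in several treatments. Without its replicate 1, AU2-94 1 µM at 24 h went from below to above vehicle (log2 difference 0.10), as did ribociclib at 24 h without replicate 1 (0.10). At 72 h AU2-94 2 µM turned to −0.17 without its replicate 3, and AU2-94 1 µM to −0.01 without replicate 1 of vehicle.

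Per kilobase of exon, the vehicle 24 h mean level was 1078 normalised counts for CCNB1, 769 for CDK1, 544 for PLK1, 415 for CDC25B, 414 for CCNB2, 161 for WEE1, 112 for PKMYT1, 96.2 for CDC25C and 10.7 for CCNB3. Ordered by mean over the 12 groups, the 8 members other than CCNB3 had both vehicle groups on top. All but WEE1 of these then had the 72 h treatments above the 24 h treatments. Of the 11 neighbouring pairs in that order, ranges overlapped in 4 for PLK1, 5 for CDC25B, 6 for CCNB2 and CDK1, 7 for CCNB1, 8 for PKMYT1, 9 for WEE1 and CDC25C, and all 11 for CCNB3.

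The compounds were next compared at matched dose and time, in 8 pairs with limma and p-values adjusted over all genes tested. These differences contain no vehicle library, but their treated libraries also entered the vehicle contrasts known when the members were chosen. They are therefore not independent of that choice, least of all for CCNB3, which was kept for how it moved. At 1 µM and 24 h, atirmociclib was lower than AU2-94 in 7 members and higher in CCNB3, against 3.16% and 1.48% of all genes. The CDK1 restraining kinase PKMYT1 had the largest log2 difference, -1.66 (SE 0.26, adjusted p = 0.000494). CDK1 itself was at -1.16 (SE 0.09, adjusted p = 9.24e-08) and PLK1 at -1.08 (SE 0.11, adjusted p = 3.85e-06). CDC25B and CCNB2 followed at -0.51 (SE 0.10, adjusted p = 0.00431) and -0.50 (SE 0.10, adjusted p = 0.00697). WEE1 (-0.71, adjusted p = 0.0366) and CDC25C (-0.70, adjusted p = 0.0483) lost their call whichever of the 6 libraries was left out (adjusted p 0.0514 to 0.13 and 0.0597 to 0.142), and with the replicate number as a block (adjusted p 0.0509 and 0.0701). CCNB3 was higher by 1.62, a call lost without replicate 1 or 3 of AU2-94 or replicate 1 or 3 of atirmociclib. The gene was kept for its course over the groups, atirmociclib 1 µM at 24 h among them, so this is a description and no test. CCNB1 did not pass, at -0.12 with a 95% interval of -0.26 to 0.03 (adjusted p = 0.433).

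At 2 µM and 24 h, atirmociclib was lower than AU2-94 in 4 members (4.31% of all genes lower, 5.12% higher). PKMYT1 was at -1.44 (SE 0.26, adjusted p = 0.00178) and WEE1, the other inhibitory kinase, at -0.81 (SE 0.19, adjusted p = 0.0105). CDK1 was at -0.66 (SE 0.09, adjusted p = 0.000173) and PLK1 at -0.53 (SE 0.11, adjusted p = 0.00648). The WEE1 call went without AU2-94 replicate 1 (adjusted p = 0.0551), and CDC25B was gained without atirmociclib replicate 1 (0.0423). The cyclins did not pass, CCNB1 being at 0.16 (95% interval 0.02 to 0.31) and CCNB2 at -0.07 (-0.28 to 0.15).

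Ribociclib at 2 µM was higher than atirmociclib at 24 h in 5 members (2.81% of all genes higher, 1.83% lower). PKMYT1 was at 1.46 (SE 0.26, adjusted p = 0.00250), CDK1 at 0.78 (SE 0.09, adjusted p = 5.43e-05) and PLK1 at 0.71 (SE 0.11, adjusted p = 0.000903). The phosphatases CDC25C and CDC25B were at 0.81 (SE 0.20, adjusted p = 0.0224) and 0.39 (SE 0.10, adjusted p = 0.0283). CDC25B was lost without atirmociclib replicate 2 (0.11) or 3 (0.0886) or ribociclib replicate 1 (0.0934) or 3 (0.145), and CDC25C without atirmociclib replicate 3 (0.111) or ribociclib replicate 2 (0.0603) or 3 (0.0902). Between ribociclib and AU2-94 at 2 µM and 24 h no member passed (0.0186% of genes lower and 0.0186% higher), with 3 members at an unadjusted p under 0.05. The 95% intervals of this difference were -0.08 to 0.31 for CDK1, -0.05 to 0.42 for PLK1 and -0.53 to 0.56 for PKMYT1.

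After 72 h, atirmociclib 1 µM was lower than AU2-94 1 µM in 5 members (3.7% of all genes lower, 4.53% higher). WEE1 was at -0.78 (SE 0.12, adjusted p = 0.000216), PLK1 at -0.75 (SE 0.07, adjusted p = 9.16e-07) and CDC25B at -0.49 (SE 0.05, adjusted p = 7.41e-06). CDK1 and CCNB1, the kinase and its cyclin, were at -0.34 (SE 0.07, adjusted p = 0.00398) and -0.25 (SE 0.06, adjusted p = 0.0184). CCNB1 was lost without AU2-94 replicate 3 (0.083) or atirmociclib replicate 1 (0.0781) or 3 (0.0855). At 2 µM all members but CCNB3, 8 in number, were lower with atirmociclib (8.73% lower, 11.1% higher). PLK1 was at -1.17 (SE 0.07, adjusted p = 6.30e-10), CDC25C at -0.75 (SE 0.13, adjusted p = 0.000387) and PKMYT1 at -0.72 (SE 0.12, adjusted p = 0.000265). CCNB2 and CCNB1 were at -0.66 (SE 0.06, adjusted p = 5.00e-07) and -0.28 (SE 0.06, adjusted p = 0.00424), and CDC25B, WEE1 and CDK1 at -0.63, -0.62 and -0.47. CCNB3 was at -1.01 (95% interval -2.52 to 0.50).

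Ribociclib at 2 µM and 72 h was higher than atirmociclib in 7 members (4.35% of genes higher, 4.83% lower). PLK1 was at 0.98 (SE 0.07, adjusted p = 1.81e-08), CCNB2 at 0.58 (SE 0.06, adjusted p = 6.73e-06) and CDC25C at 0.57 (SE 0.13, adjusted p = 0.00829). PKMYT1 was at 0.52 (SE 0.12, adjusted p = 0.00894), and CDK1, CDC25B and CCNB1 at 0.49, 0.45 and 0.24. WEE1 did not pass (0.34, adjusted p = 0.0841). CCNB3, kept for its course over the groups, was at 1.96, a description and no test. Some calls rest on single libraries. CCNB1 was lost without atirmociclib replicate 1 (0.0842) or 3 (0.0957) or ribociclib replicate 2 (0.0669), CDC25C without atirmociclib replicate 1 (0.0539), and PKMYT1 without ribociclib replicate 2 (0.0519). Without atirmociclib replicate 3 WEE1 passed (0.0335). CCNB3 entered the count without replicate 3 of atirmociclib or of ribociclib, which again only describes it. Between ribociclib and AU2-94 at 72 h no member passed (1.38% of genes lower, 1.96% higher), and 3 had an unadjusted p under 0.05. The intervals were -0.12 to 0.17 for CDK1 and -0.34 to -0.05 for PLK1.

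**Figure D2:**
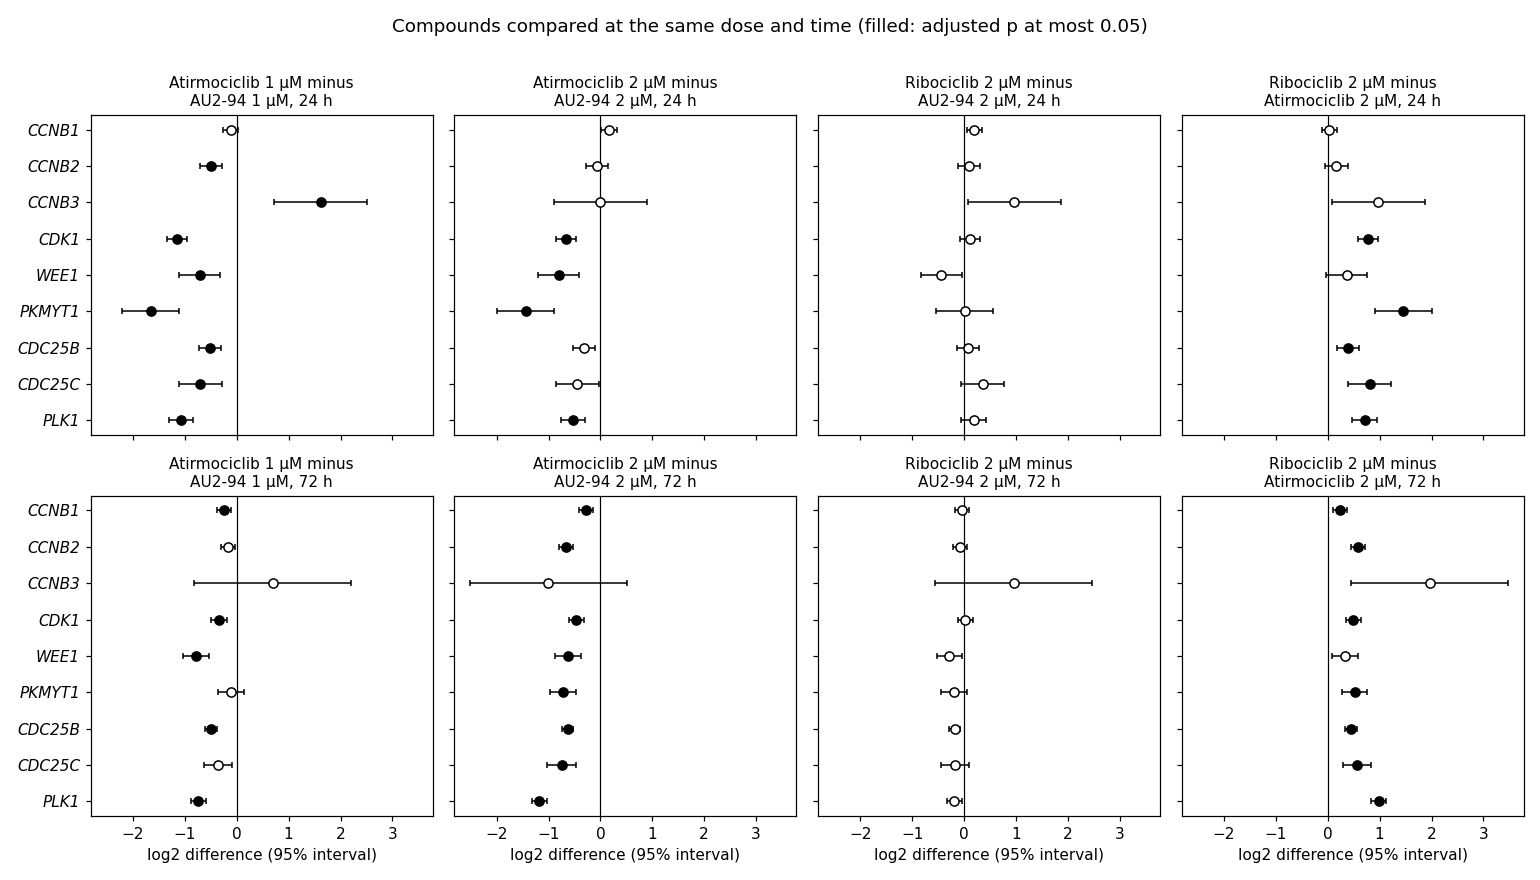
Log2 difference between compounds at matched dose and time for each member, with 95% confidence intervals from limma, filled points having passed an adjusted p of 0.05. Atirmociclib lies below AU2-94 in all 4 pairs of these agents for every member but CCNB1 and CCNB3, though not each of these differences passed. No member passed between ribociclib and AU2-94.

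Few members passed between doses. AU2-94 at 2 µM was lower than at 1 µM at 24 h in CDK1, at -0.55 (SE 0.09, adjusted p = 0.00812), and in PLK1, at -0.58 (SE 0.11, adjusted p = 0.0285), against 0.384% of all genes lower and 0.0248% higher. In this pair 5 members had an unadjusted p under 0.05 in limma, all of them lower. The median log2 difference was -0.425 over the members and -0.0016 over all genes. CDK1 was lost without replicate 1 of either dose (0.0683 at 1 µM, 0.0697 at 2 µM) or replicate 3 of 1 µM (0.0615). PLK1 was lost without replicate 1 (0.0798) or 3 (0.183) of 1 µM or replicate 1 (0.192) or 3 (0.0605) of 2 µM. No member passed between the doses of AU2-94 at 72 h in the limma fit, where 0% of genes passed in either direction and 2 members had an unadjusted p under 0.05. Between the atirmociclib doses no member passed at 24 h (0.0062% of genes lower and 0.0062% higher), 1 having an unadjusted p under 0.05. CCNB3 was at −2.50, a description of a gene kept for its course. At 72 h, 2 µM was lower in CCNB2, at -0.32 (SE 0.06, adjusted p = 0.0116), and in PLK1, at -0.33 (SE 0.07, adjusted p = 0.0170) (0.936% of genes lower, 1.25% higher). CCNB2 was lost without replicate 3 of 1 µM (0.0591) or replicate 1 of 2 µM (0.0807), and PLK1 without replicate 1 (0.0902) or 2 (0.0597) of 1 µM or replicate 2 of 2 µM (0.0728).

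Effects were smaller at 72 h than at 24 h for several members. The effect of a treatment at 72 h minus that at 24 h was estimated by limma over all 36 libraries. Calls needed an adjusted p of 0.05 or less with a difference of at least 1. The difference contains both vehicle contrasts, so it is not independent of the choice of members, and the calls describe them without testing them. PLK1 was called for every treatment, at 1.37 (SE 0.13) for AU2-94 1 µM, 2.05 (SE 0.13) for AU2-94 2 µM and 1.71 (SE 0.13) for atirmociclib 1 µM. Atirmociclib 2 µM and ribociclib gave 1.40 (SE 0.13) and 1.67 (SE 0.13). CDK1 and PKMYT1 were called for the 4 treatments other than AU2-94 1 µM, PKMYT1 reaching 2.24 with atirmociclib 2 µM. In all, 1, 6, 5, 4 and 5 members were called for AU2-94 1 µM, AU2-94 2 µM, atirmociclib 1 µM, atirmociclib 2 µM and ribociclib, against 2.89%, 2.97%, 3.73%, 3.67% and 3.54% of all genes higher. CCNB1, WEE1 and CCNB3 were called for none. In vehicle itself no member passed between 72 h and 24 h (3.64% of genes lower, 3.85% higher), none of the 9 having an unadjusted p under 0.05. That fit shared the spread of all groups. CCNB3 was at −1.29 (SE 0.63), with vehicle libraries at 48.05 to 67.5 at 24 h and 19.9 to 24.6 at 72 h. Vehicle libraries of CCNB1 were at 2591 to 2657 and 2750 to 2981, and those of PLK1 at 2524 to 2624 and 2683 to 2898. For the other members the vehicle ranges of both times overlapped.

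Some of these calls hung on 1 library. For AU2-94 1 µM, CDC25C was gained (1.04 to 1.08) without replicate 2 of AU2-94 at either time or replicate 3 of vehicle at either time, and CDC25B (1.04) without replicate 3 of vehicle at 24 h. For atirmociclib 1 µM, CCNB2 was lost (0.97) without replicate 3 of its 24 h libraries, and CDC25B gained (1.05) without replicate 3 of vehicle at 24 h. For ribociclib, CDC25C was lost (0.96 to 1.00) without replicate 1 or 2 of ribociclib at either time, replicate 1 or 2 of vehicle at 24 h or replicate 2 of vehicle at 72 h. CCNB2 was lost (0.96 to 0.99) without replicate 2 of ribociclib or vehicle at 24 h or replicate 3 of vehicle at 72 h, and CCNB3 gained (2.67) without replicate 3 of ribociclib at 72 h.

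**Figure D3:**
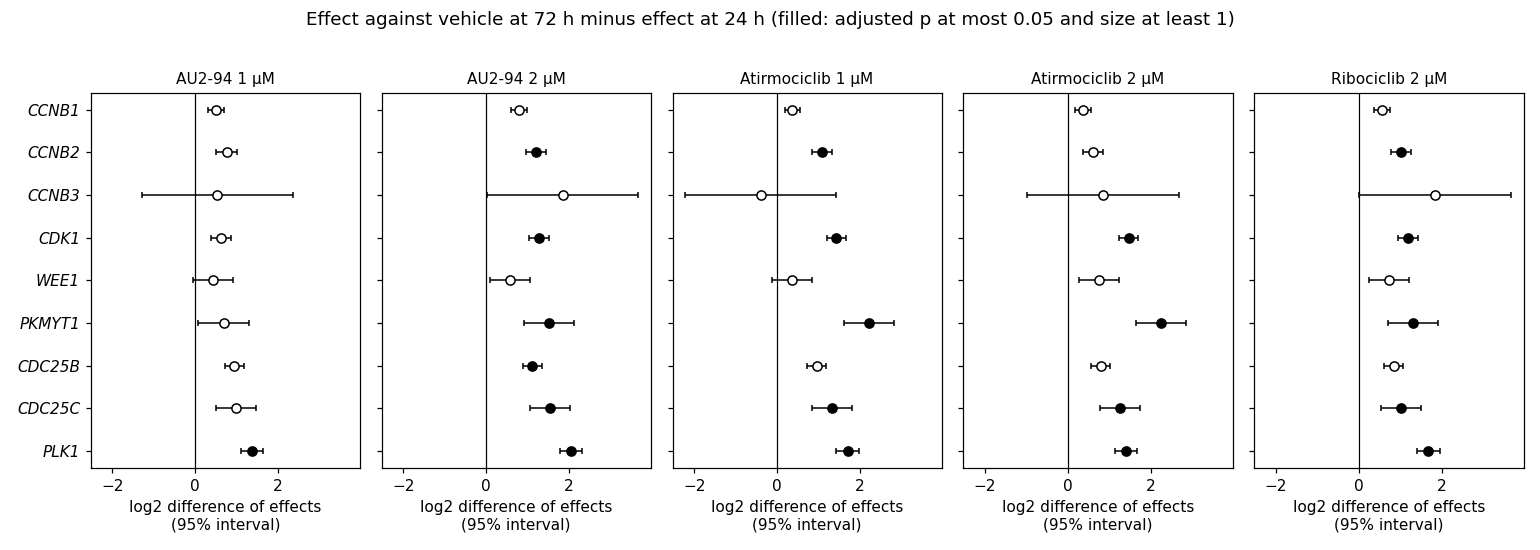
Effect of each treatment against time-matched vehicle at 72 h minus its effect at 24 h (log2), with 95% confidence intervals from limma, filled points having passed an adjusted p of 0.05 and a size of 1. All members but CCNB3 lie right of 0 in the 5 treatments, and PLK1 is filled in each.

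Genes that act beside the members were followed as lists, with counts by limma's adjusted p of 0.05. Over all genes tested, in the order AU2-94 1 and 2 µM, atirmociclib 1 and 2 µM and ribociclib, 13.5%, 14.9%, 15.4%, 16.2% and 15.2% fell at 24 h and 14.3%, 16%, 16.6%, 18.6% and 16.8% rose. At 72 h 17%, 15.3%, 19.8%, 19.6% and 15.4% fell and 15.4%, 14.2%, 20%, 20.9% and 15.5% rose. The median of all genes was −0.01 to 0.01 in these contrasts. Of 13 genes for CDK1 activation and the Greatwall pathway, which keeps CDK1 substrates phosphorylated, 5 to 7 fell and 2 to 4 rose at 24 h (medians −0.16 to −0.02), and 6 to 8 fell and 1 to 3 rose at 72 h (medians −0.31 to −0.15). CCNA2, the cyclin that precedes cyclin B, fell in all treatments at both times, with log2 differences of −3.83 to −1.91 after 24 h and −2.21 to −0.80 after 72 h. CDC25A, a phosphatase of G1 and S phase, did so as well, at −2.23 to −1.10 after 24 h and −1.59 to −0.97 after 72 h.

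Of the 6 genes that activate PLK1 or are related to it, 4 to 5 fell and 1 rose in each treatment at both times (medians −1.11 to −0.75 at 24 h, −1.19 to −0.66 at 72 h). AURKA, which activates PLK1, and TPX2, which activates AURKA on the spindle, fell at 24 h by log2 differences of −2.22 to −1.66 and −2.51 to −1.63. At 72 h the relative PLK2 rose (0.97 to 1.23) and PLK3 fell (−1.24 to −0.80). Checkpoint genes that restrain CDC25 or sustain WEE1 were mixed, 6 to 8 of 20 tested falling and 3 to 5 rising at 24 h (medians −0.21 to −0.07), and 6 to 10 of 21 falling and 0 to 3 rising at 72 h (medians −0.15 to −0.07). CHEK1, the kinase that holds CDC25 in check, and CLSPN, its mediator, fell in all treatments at both times, by −3.12 to −1.22 and −4.66 to −1.59 at 24 h.

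Among 12 regulators of late cell cycle promoters, 4 to 7 fell and 0 to 1 rose at 24 h (medians −0.35 to −0.20), and 4 to 6 fell and none rose at 72 h (medians −0.38 to −0.12). MYBL2 and FOXM1, activators of these promoters, had log2 differences of −3.30 to −1.74 and −2.07 to −1.66 at 24 h, and of −1.96 to −0.87 and −1.38 to −0.76 at 72 h. Of 7 nuclear transport and Ran cycle genes, followed for cyclin B but not particular to it, none rose. Of these, 6 fell in each treatment at 24 h (medians −0.48 to −0.34) and 5 to 6 at 72 h (medians −0.48 to −0.38). KPNA2, a nuclear import adaptor, and RANBP1, a cofactor of the Ran cycle, were at −1.22 to −0.94 and −0.77 to −0.58 at 24 h.

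Over the 12 group means, the 28 pairs of the 8 members other than CCNB3 had correlations of log2 levels of 0.878 to 0.997 (median 0.957), and CCNB3 with the other 8 of −0.169 to −0.0897. Group means share treatment and time, and CCNB3 was kept because it moved unlike CCNB1 and CCNB2, so these are descriptions. The genes closest to CCNB1 among 12474 with a mean of at least 50 were CDC20 (r = 0.993), which activates the anaphase-promoting complex, G2E3 (0.991), FOXM1 (0.987), H2BC21 (0.985) and KPNA2 (0.984). Those closest to CCNB3 among 12475 were ALG10 (0.734), INIP (0.730), RAB30-DT (0.729), THRB (0.726) and ASCC1 (0.723), and the lowest r with CCNB3 was −0.780. They are the highest of many candidates over 12 means, and single libraries moved the CCNB3 means, so nothing is read from them.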

How the data were processed

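RNA-seq libraries from total RNA of LNCaP cells (12 amplification cycles per the labels' protocol, MGI sequencer, paired reads) were aligned with STAR 2.6.1d to GRCh38 and normalised with DESeq2, as the submitters' processing notes and the study's methods name them, and the annotation release, counter and strand setting are not given in the sources used here. The deposited signal values are counts per gene that the authors normalised for library size, and whole reads could not be recovered from them, as the best step for a library turned 19.2% to 50.2% of its low values into whole numbers (tolerance 0.02 steps). Depth in reads is therefore unknown, and no count model was used.

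A gene entered a fit where 3 or more of its libraries held 10 or more normalised counts, and was tested with limma 3.58.1 (R 4.3.3, empirical Bayes with an intensity trend) on log2(normalised count + 1), which understates changes of low genes. The 6 groups of a time point shared 1 fit (16137 genes at 24 h, 16341 at 72 h), and all 36 libraries shared the fit for changes between times (16850 genes). All 9 members were tested in each. Calls needed a Benjamini-Hochberg adjusted p of 0.05 or less and, against vehicle and between times, a log2 difference of at least 1. The script was tested on simulated data. The authors gave replicates numbers as batches, so a block on that number was an alternative, and same-numbered libraries deviated with a mean correlation of 0.00179 at 24 h and -0.00217 at 72 h over 45 pairs each. Other alternatives were a pseudocount of 8, no filter, a mean of at least 100, quantile normalisation, TMM factors, only the groups compared, and leaving out each library.

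Members and lists were chosen with earlier results of these data known. Besides the 9 members, the text names from each list and time the 2 genes with the largest mean change among those that passed in all 5 treatments, the 5 genes most correlated with CCNB1 and with CCNB3 (mean of at least 50), marker genes, and genes whose exons overlap a member's, the last chosen after the values were seen. A further prostate marker is not reported here and is left out of the summed level. Exons of PLK1 also overlap 553 bases of a lncRNA at a mean of 0.119 and 58 of ERN2. Exons of WEE1 overlap 104 bases of a snoRNA on the same strand, which has no entry among the counted genes. No other near-identical stretch (100 bases, 98% identity) was found for a member.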

Additional observations from a re-analysis of the deposited data

Results flagged for a closer look

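The treatment effect on 21 combinations of member and treatment differed between 72 h and 24 h, and all were less negative at 72 h. The call was limma's on the difference itself over all 36 libraries (adjusted p of 0.05 or less, size of at least 1). Values are log2 effects at 72 h minus 24 h. For AU2-94 1 µM it was PLK1 1.37. For AU2-94 2 µM they were CCNB2 1.20, CDK1 1.27, PKMYT1 1.52, CDC25B 1.11, CDC25C 1.55 and PLK1 2.05. For atirmociclib 1 µM they were CCNB2 1.08, CDK1 1.43, PKMYT1 2.22, CDC25C 1.33 and PLK1 1.71. For atirmociclib 2 µM they were CDK1 1.46, PKMYT1 2.24, CDC25C 1.25 and PLK1 1.40. For ribociclib 2 µM they were CCNB2 1.02, CDK1 1.18, PKMYT1 1.30, CDC25C 1.01 and PLK1 1.67. The effect at each time shares its vehicle libraries with all treatments of that time, and seeding density differed between the times. The members were chosen with these contrasts in view, so the calls are a description and no test.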

How the results depend on the processing

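Alternatives were one change at a time. With all libraries kept, no setting moved the median of all genes by over 0.0608. Over the alternatives other than leaving out a library, 966 of the results for the 8 members other than CCNB3 kept direction and call and 21 lost the call, and for CCNB3 62 did, 3 lost it and 1 reversed. Named pathway genes kept it in all 695, and of the counts over lists 340 stayed within 1.5 times and 10 moved. Without the filter on low values the members differing between atirmociclib and AU2-94 at 1 µM and 24 h were 5 in place of 8. Fitting only the groups compared, with fewer residual degrees of freedom, gave 2 in place of 4 (atirmociclib against AU2-94, 2 µM, 24 h), 3 in place of 5 (ribociclib against atirmociclib, 24 h) and 4 in place of 7 (the same at 72 h). It gave 0 in place of 2 for the doses of AU2-94 at 24 h and of atirmociclib at 72 h, and 1 in place of 0 for vehicle at 72 h against 24 h (CCNB3, described only). Between atirmociclib and AU2-94 at 1 µM and 24 h, fitting only these groups in limma lost CCNB2 (adjusted p = 0.0615) and CCNB3. Quantile normalisation gave 1 in place of 0 for ribociclib against AU2-94 at 72 h (CDC25B), 3 in place of 5 for ribociclib between times, and turned CCNB3 with AU2-94 1 µM at 72 h to -0.17, and the cause was not tested. With the replicate number as a block, the members past both thresholds against vehicle were 7, 9, 9, 9 and 8 at 24 h and 0, 0, 4, 4 and 0 at 72 h, those differing between compounds 6, 4, 0 and 5 at 24 h and 5, 8, 0 and 7 at 72 h, between doses 2, 0, 0 and 2, and between times 1, 6, 5, 4 and 5, with 0 for vehicle. The block changed no other call than WEE1 and CDC25C between atirmociclib and AU2-94 at 1 µM and 24 h.

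Leaving out 1 library gave members past both thresholds of 7 to 7, 7 to 9, 8 to 9, 8 to 9 and 8 to 8 at 24 h, and 0 to 1, 0 to 0, 2 to 4, 4 to 4 and 0 to 1 at 72 h. Members differing between compounds ranged over 5 to 6, 3 to 5, 0 to 0 and 3 to 5 at 24 h, and 4 to 5, 8 to 8, 0 to 0 and 5 to 8 at 72 h. Between doses the ranges were 0 to 2 (AU2-94) and 0 to 0 (atirmociclib) at 24 h, and 0 to 0 and 1 to 2 at 72 h. Between times they were 1 to 3, 6 to 6, 4 to 6, 4 to 4 and 3 to 6, and 0 to 0 for vehicle. Against vehicle, CCNB3 ranged from -0.85 to 0.10 (AU2-94 1 µM, 24 h), -0.70 to 0.10 (ribociclib, 24 h), -0.0098 to 0.19 (AU2-94 1 µM, 72 h) and -0.17 to 0.94 (AU2-94 2 µM, 72 h), and CDC25C from -0.18 to 0.016 (AU2-94 2 µM, 72 h). Read depth cannot be had from normalised values, and 3 libraries a group limit the precision, most for CCNB3.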
